A study of Homo sapiens with 6 samples.

Results

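The GAS6-TAM receptor axis was followed through RNA-seq of 143B cells, an established human osteosarcoma cell line, with or without CRISPR/Cas9 deletion of CNTNAP4, a contactin-associated cell surface protein. The members are the 5 rows of the deposited table, out of 54308 genes listed, whose symbols are GAS6, PROS1, AXL, TYRO3 and MERTK. The group was chosen by measured values of this same contrast, because GAS6 was among the genes with the largest log2 decreases in KO. The other ligand and the 3 receptors were added as its family. The members' differences between KO and VC are therefore given as a description, without a p-value, and nothing is supported by them.

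There were 3 VC and 3 KO libraries. The labels describe VC as 143B cells given the vector plasmid for 48 h, with the genotype control, and KO as 143B cells given the CNTNAP4 KO plasmid for the same time. Both were grown in DMEM with fetal bovine serum. The study's methods give a longer incubation with the plasmid than the 48 h of the labels. After it they describe single-cell colonies grown from sorted transfected cells, and 3 independent RNA samples from clonal cells. The labels do not say which colony each library came from, so a property of a colony and an effect of the deletion cannot be told apart. Where such samples come from 1 clone, p-values measure only the spread between these samples, which may be technical.

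GAS6 (growth arrest-specific 6) and PROS1 (protein S) are secreted vitamin K-dependent proteins. Their amino-terminal Gla domain, once gamma-carboxylated, binds phosphatidylserine on apoptotic cells or membranes in the presence of calcium. Their carboxy-terminal domains bind the TAM receptor tyrosine kinases TYRO3, AXL and MERTK. GAS6 binds all of these receptors, with AXL as its closest partner, and PROS1 activates TYRO3 and MERTK. TAM signalling is known for the uptake of apoptotic cells, for restraint of innate immune responses and, in tumors, for survival, migration and drug resistance.

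The sequences upstream of the starts of GAS6, PROS1 and AXL are shown because these are the members whose KO and VC values did not overlap. Each is the 250 bases before the start annotated by RefSeq on GRCh38.p14, read 5′ to 3′ on the strand of the gene, with GGGCGG or its reverse complement CCGCCC (the core of an SP1 site) in capitals. The windows are chr13:113864077-113864326 on the minus strand for GAS6, chr3:93973897-93974146 on the minus strand for PROS1 and chr19:41218973-41219222 on the plus strand for AXL, the first of its annotated starts.
GAS6: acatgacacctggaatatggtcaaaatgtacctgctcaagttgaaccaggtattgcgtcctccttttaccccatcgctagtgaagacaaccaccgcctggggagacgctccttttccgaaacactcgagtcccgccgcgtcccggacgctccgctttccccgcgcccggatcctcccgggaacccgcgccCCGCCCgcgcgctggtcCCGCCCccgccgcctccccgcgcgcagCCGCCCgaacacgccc
PROS1: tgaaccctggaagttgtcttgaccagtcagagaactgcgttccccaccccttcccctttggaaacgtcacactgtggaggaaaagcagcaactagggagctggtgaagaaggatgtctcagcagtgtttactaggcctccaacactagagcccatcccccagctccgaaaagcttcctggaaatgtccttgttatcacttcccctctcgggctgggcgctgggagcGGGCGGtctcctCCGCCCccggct
AXL: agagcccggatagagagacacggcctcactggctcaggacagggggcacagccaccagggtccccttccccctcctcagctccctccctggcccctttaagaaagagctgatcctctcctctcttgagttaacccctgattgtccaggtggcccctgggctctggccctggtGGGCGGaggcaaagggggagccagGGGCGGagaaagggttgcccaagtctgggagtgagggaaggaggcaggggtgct

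The GAS6 window held 3 such matches, with first bases at -60, -43 and -16 from the start. The PROS1 window held 2, at -24 and -12, and the AXL window held 2, at -78 and -54. Of all 35116 RefSeq windows of this length, 42.6% held at least 1. The windows had 66.8% (GAS6), 57.6% (PROS1) and 64.4% (AXL) G and C, against a median of 58.0% over all windows. All 5 members had a window, and the first TYRO3 window and the MERTK window held 3 and 4 such matches. None of the 3 windows printed held TGANTCA (an AP-1 site, in 6.57% of all windows), GGAATG (a TEAD site, 11.9%), CACGTG (an E-box, 6.35%), TGATGNAA (an ATF4-type element, 3.14%) or TATAAA (10.7%), searched on both strands. Among windows not printed, the second AXL window held a GGAATG match at -212, and the first TYRO3 window a TGANTCA match at -220. These matches describe letters only.

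The libraries were deposited as log2 signals that the authors had quantile-normalized, so every library spans the same range, from -10.87 to 12.04 with a median of 0.62. The linear unit is not given, the read depth is unknown, and an empty cell means that no value is listed. Of the genes listed, 19306 had at least 2 values in each group and were tested. CNTNAP4 itself had a value in 1 library only, -7.18 in VC replicate 3, and no value in the other VC libraries or in any KO library, so its row cannot check the labels. The first principal component held 63.5% of the variance and separated the groups, with VC between -48.4 and -46.7 and KO at 20.8, 73.8 and 49.0 in replicates 1 to 3. KO replicate 1 thus lay nearest to VC, and the median SD of a gene was 0.10 in VC and 0.19 in KO. By limma's moderated test with Benjamini-Hochberg adjustment, 32.9% of the genes tested were called at an adjusted p under 0.05, 13.1% higher and 19.8% lower in KO. The median over the genes tested alone still differed between libraries, from 1.15 to 1.20 in VC and from 1.06 to 1.13 in KO. With each library centred on that median instead (median-centred libraries), the calls were split into 3141 higher and 3066 lower, against 2526 and 3828. The median difference over all genes tested was -0.13.

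Of the members, 2 of 5 were called, GAS6 and AXL, both lower in KO, beside the 32.9% called among all genes and the 19.8% called lower. GAS6 and AXL lay lower in every KO library than in any VC library, and PROS1 lay higher in every KO library. Such separation was found in 59.3% of the 17698 genes with 6 values, with KO below VC in 36.7% and above it in 22.6%. Nothing is read from these counts, since the contrast chose the members.

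GAS6, the ligand of all the TAM receptors, had log2 signals of 3.44, 3.14 and 3.40 in the VC libraries and of 1.69, 1.01 and 1.23 in the KO libraries. The lowest VC value stood 1.45 above the highest KO value, and KO replicate 1, the KO library nearest to VC over all genes, was also the highest KO library for GAS6. VC averaged 3.33 ± 0.16 and KO 1.31 ± 0.34 (mean ± SD, n = 3 each), and the log2 difference was -2.02 with a standard error of 0.20. On the linear scale KO held 24.7% of the VC signal, 4.05-fold lower. Of all genes tested, 1.09% had a difference as low as that of GAS6 or lower. In bulk libraries, fewer cells that express a gene and less of its RNA per cell cannot be told apart.

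PROS1, the anticoagulant protein S and the other ligand, had log2 signals of 1.26, 1.13 and 1.20 in VC and of 1.40, 1.39 and 1.37 in KO. The KO values were close together and all above VC, by a gap of 0.11 between the groups. VC averaged 1.19 ± 0.065 and KO 1.39 ± 0.018 (mean ± SD, n = 3 each). The log2 difference was 0.19 with a standard error of 0.068, or 114% of the VC signal, and PROS1 was not among the called genes. It was called when only the upper 50% of signals was tested (0.19), with median-centred libraries (0.28) and with 1 added to the linear signal (0.14).

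AXL, the receptor with the closest partnership to GAS6, had log2 signals of 6.65, 6.56 and 6.67 in VC and of 6.30, 6.36 and 6.30 in KO. The groups were separated by 0.20, with little spread in either. VC averaged 6.63 ± 0.055 and KO 6.32 ± 0.035 (mean ± SD, n = 3 each), and the log2 difference was -0.31 with a standard error of 0.068. KO thus held 80.8% of the VC signal, 1.24-fold lower, and relative to the median of all genes the difference was -0.18. AXL was no longer called without VC replicate 1 (-0.30), VC replicate 2 (-0.34), VC replicate 3 (-0.29) or KO replicate 3 (-0.30), nor with median-centred libraries (-0.22).

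TYRO3, a TAM receptor best known from the nervous system, had log2 signals of 2.19, 2.04 and 2.12 in VC and of 2.13, 1.97 and 2.04 in KO. The groups overlapped, and their means of 2.12 ± 0.078 and 2.04 ± 0.081 (SD, n = 3 each) differed by -0.072 with a standard error of 0.082. MERTK, the receptor best known from the engulfment of apoptotic cells by macrophages and retinal pigment epithelium, had log2 signals of 2.41, 2.38 and 2.40 in VC and of 2.33, 2.40 and 2.41 in KO. These groups overlapped too, with KO replicate 2 inside the VC range, KO replicate 3 just above it and KO replicate 1 below it. Their means of 2.40 ± 0.014 and 2.38 ± 0.043 (SD, n = 3 each) differed by -0.015 with a standard error of 0.064. KO held 95.1% of the VC signal of TYRO3 and 99.0% of that of MERTK. Both signs turned with median-centred libraries, to 0.015 for TYRO3 and 0.073 for MERTK, and that of MERTK also without KO replicate 1, to 0.0097. VC replicate 2 held the lowest VC value of all 5 members.

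**Figure D1:**
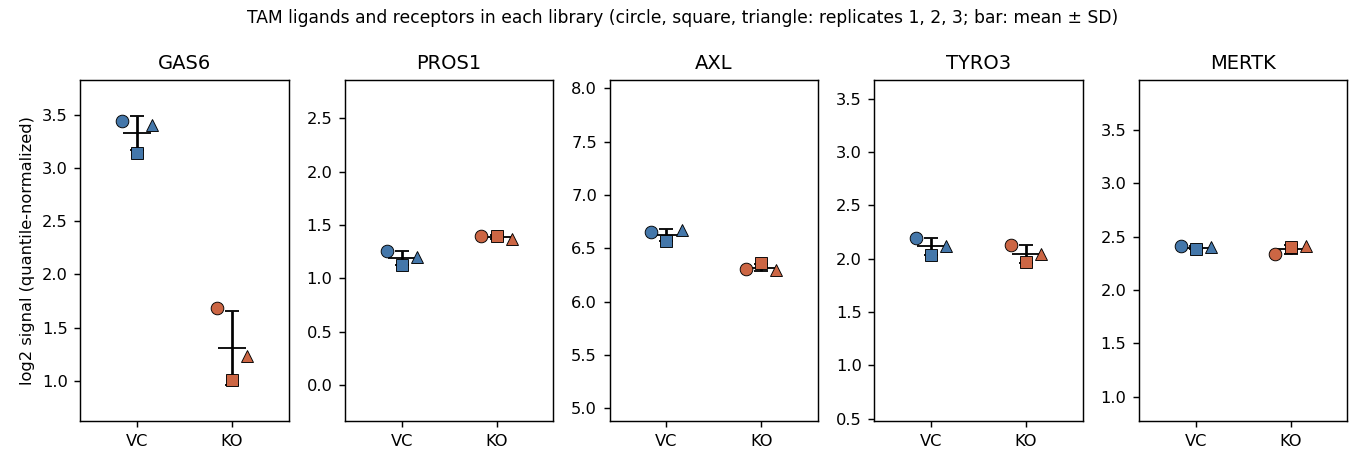
Log2 signal of each ligand and receptor in the 3 VC and 3 KO libraries, 1 panel a gene with its own range of equal height; bars are mean ± SD, and heights are not compared between genes. GAS6 separates into VC at 3.14 to 3.44 and KO at 1.01 to 1.69, while the groups of TYRO3 and MERTK overlap.

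**Figure D2:**
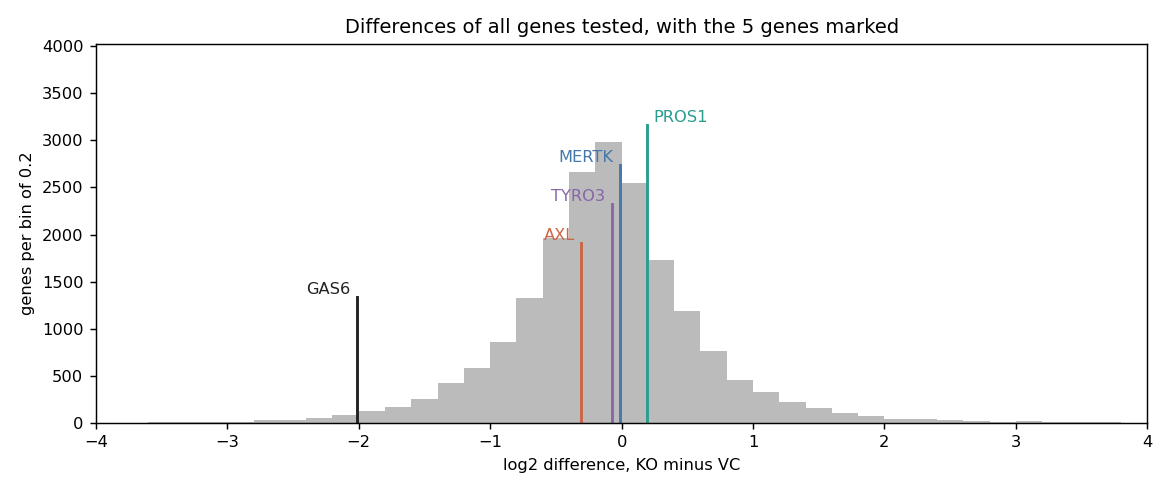
Number of tested genes per bin of the log2 difference KO minus VC, with coloured lines at the members' differences; the heights of the lines carry no value. GAS6 lies in the lower tail at -2.02, and the other 4 genes lie in the bulk between -0.31 and 0.19.

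The log2 ratio of 2 genes within a library is free of any single shift of that library, such as the median centring, but not of the quantile normalization, which acts by signal level. GAS6 over PROS1 went from 2.14 ± 0.11 in VC to -0.074 ± 0.34 in KO (SD, n = 3 each), a change of -2.21, and the groups did not overlap. The KO libraries stood at 0.29, -0.38 and -0.13, so KO replicate 1 was nearest to VC in this ratio too. The log2 ratio of GAS6 to its receptors changed by -1.71 over AXL, -1.94 over TYRO3 and -2.00 over MERTK, each with KO below VC in all libraries. PROS1 over AXL went from -5.43 ± 0.039 to -4.93 ± 0.031, a change of 0.50, and it changed by 0.27 over TYRO3 and by 0.21 over MERTK, each with KO above VC. AXL changed by -0.23 against TYRO3 and by -0.29 against MERTK, with KO below VC. TYRO3 against MERTK changed by -0.058, and its groups overlapped.

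**Figure D3:**
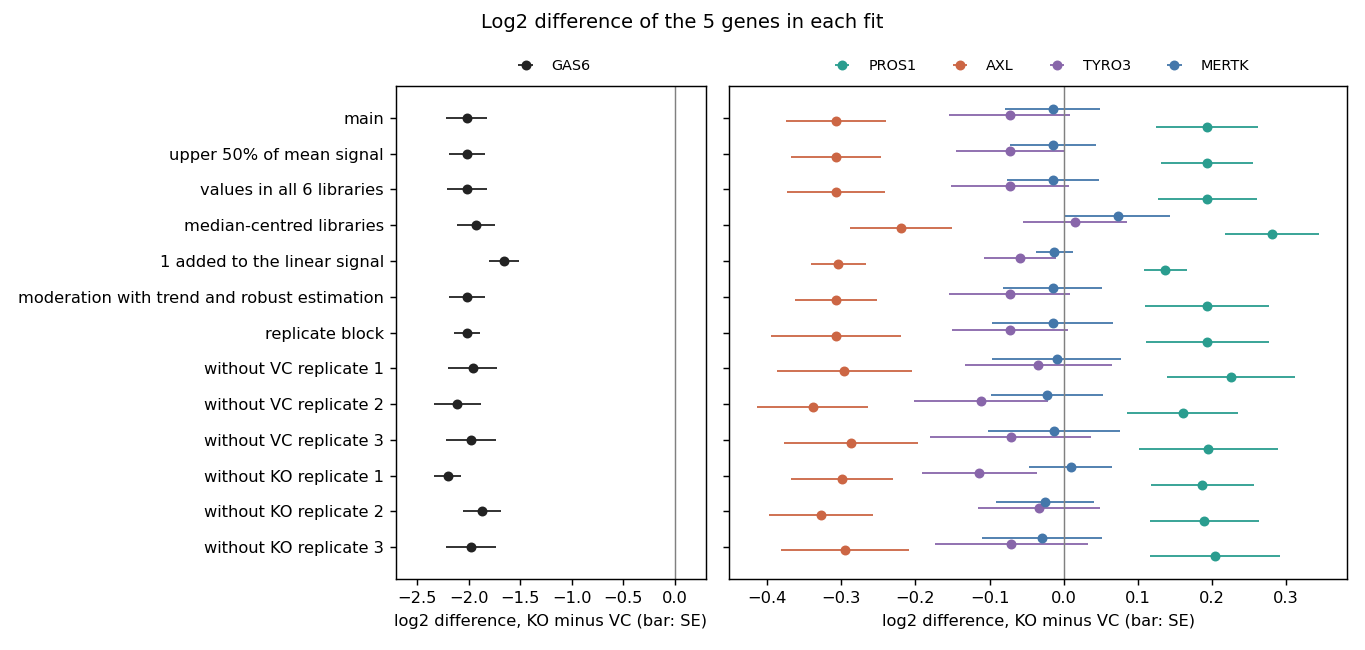
Log2 difference KO minus VC of each of the 5 genes, with its standard error, in the fit as reported (top row) and under each alternative, with GAS6 on an axis of its own. GAS6 stays between -2.20 and -1.66, AXL below 0 and PROS1 above 0 in every fit, and TYRO3 and MERTK lie on both sides of 0.

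GAS6 lies at 13:113820549-113864067 on the minus strand (GENCODE 29 on GRCh38). GAS6-DT, a long non-coding RNA transcribed the opposite way, starts 100 bases away, at 13:113864168-113866833 on the plus strand. The upstream windows of these genes share 100 bases, which hold all 3 GGGCGG matches printed above. GAS6-DT had log2 signals of -0.55, -0.83 and -1.18 in VC and of -2.41, -3.54 and -3.37 in KO, so KO lay below VC in every library. It fell by 2.25 on the log2 scale (standard error 0.35, adjusted p = 0.0134), and was not called without VC replicate 1 (adjusted p = 0.0514, the highest of the fits that left out 1 library). Because GAS6 was chosen by this contrast, the adjusted p-values of GAS6-DT and of other genes beside GAS6 are a description only. The log2 ratio of GAS6-DT to GAS6 within a library was -4.18 ± 0.35 in VC and -4.42 ± 0.28 in KO (SD, n = 3 each), and its groups overlapped. GAS6-AS1, an antisense gene sharing 25196 bases of its span with GAS6, had values in 2 libraries, -5.55 in VC replicate 2 and -5.67 in VC replicate 3. The kit marks strand, but the counting setting is not given in the sources used here, so reads of GAS6 and its antisense gene may not be told apart.

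The 18 nearest tested genes around GAS6, 10 before and 8 after it, had a median difference of -0.20, against -0.13 over all genes. Of these 18, 8 were called lower and 2 higher, beside 19.8% and 13.1% of all genes tested. The calls around GAS6 formed a run, with TMEM255B (-0.74, adjusted p = 0.0172) on one side and GAS6-DT, LINC00452 (-3.27, adjusted p = 0.00478) and C13orf46 (-1.12, adjusted p = 0.0418) on the other. LINC00452 was low in the table, with VC at -4.85, -5.36 and -5.49 and KO at -8.53, -8.49 and -8.50, and was not called once 1 was added to the linear signal. When single libraries were left out, C13orf46 was called only without KO replicate 1, and TMEM255B was not called without VC replicate 1, VC replicate 3 or KO replicate 3. RASA3, a Ras GTPase-activating protein next along the chromosome, was 0.31 higher in KO with an adjusted p of 0.0665. Farther out, TFDP1, a partner of E2F, fell by 0.72 and CHAMP1, a protein of chromosome alignment, by 0.68, and ADPRHL1 rose by 0.79. Over the 334 tested genes of chromosome 13 the median was -0.18, and 20.4% were called lower.

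Around the other members, the medians of the neighbours ran from -0.55 to 0.41. Over all genes tested the median was -0.13, with 13.1% called higher and 19.8% called lower. PROS1 (3:93873033-93980003, minus strand) had 20 neighbours with a median of -0.081, of which 1 was called higher and 4 lower. Around AXL (19:41219203-41261766, plus strand) the median of the 20 neighbours was 0.41, with 9 called higher and 1 lower, while AXL itself was lower. TGFB1, the cytokine TGF-beta 1, rose by 0.41 there, and BCKDHA, a subunit of branched-chain keto acid dehydrogenase, by 1.50. Around TYRO3 (15:41557675-41583586, plus strand) the median was 0.094, with 5 called higher and 3 lower. The 20 genes around MERTK (2:111898479-112029561, plus strand) had a median of -0.55, with 9 called lower and 1 higher, among them BUB1, a spindle checkpoint kinase (-0.92), and BCL2L11, the pro-apoptotic BIM (-0.78).

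**Figure D4:**
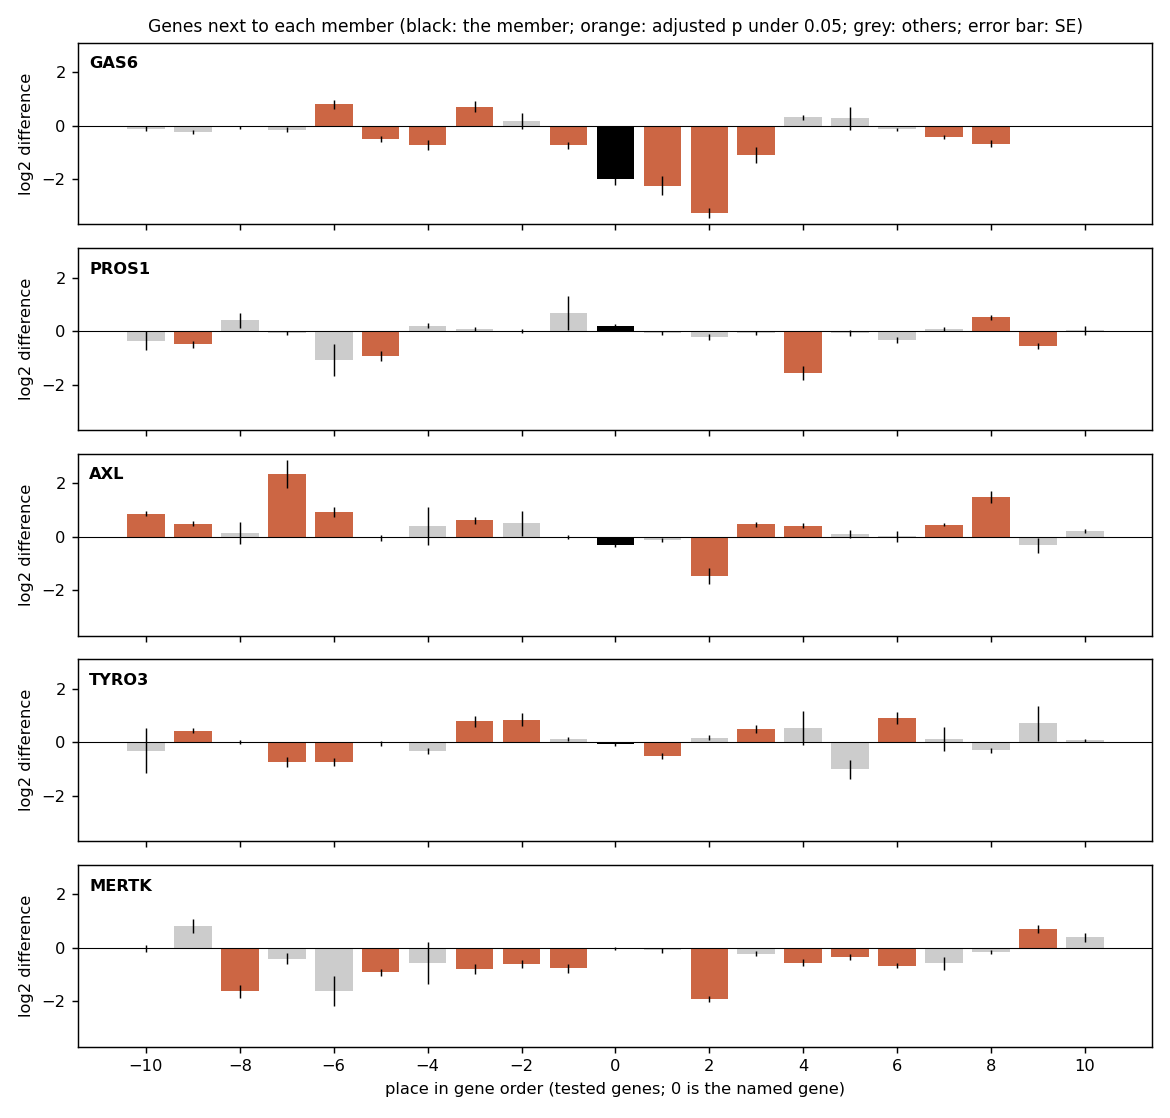
Log2 difference KO minus VC, with its standard error, of up to 10 tested genes on each side of each member, by their order along the chromosome; black is the member, orange a gene with an adjusted p under 0.05 and grey the others. The run of lower genes stands at GAS6, whereas AXL lies below 0 among neighbours with a median of 0.41 and MERTK near 0 among neighbours with a median of -0.55.

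The genes that serve the axis were taken from 7 lists, of which 103 of 114 genes were tested and 36 were called (15 higher, 21 lower). That is 35.0%, beside 32.9% of all genes, and the median of -0.059 stands beside -0.13. When only the upper 50% of mean signal was tested, 39 of 78 list genes were called, beside 5702 of 9653 genes. The medians there were -0.056 and -0.087. Of the 36 calls, 8 were kept in each of the 6 fits that left out 1 library. These were TUB, HSP90AA1, RHBDF1, CBLB, JUN, EGFR, PDGFRA and PDGFRB, and 24 of the 36 were called in fewer than 4 of these fits. None of these 36 genes changed direction under any alternative.

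Gamma-carboxylation makes the ligands active. Of 11 genes of the vitamin K cycle and propeptide processing, 1 was called higher and 1 lower, beside 32.9% called of all genes, with a median of -0.095. By limma the count of 2 became 0 without VC replicate 1, VC replicate 3 or KO replicate 3, where 3, 2 and 3 genes had an unadjusted p under 0.05 (4 with all libraries). It became 1 without VC replicate 2 or KO replicate 2, and 4 with the upper 50% of signals, with 1 added to the linear signal or with robust moderation. GGCX, the gamma-glutamyl carboxylase, differed by -0.014 (adjusted p = 0.885), and VKORC1, the vitamin K epoxide reductase that warfarin blocks, by -0.14 (adjusted p = 0.368). FURIN, a proprotein convertase, differed by 0.29 (adjusted p = 0.0647). AIFM2 (FSP1), which reduces vitamin K and ubiquinone, rose by 0.41 (adjusted p = 0.0263), and the convertase PCSK6 fell by 0.55 (adjusted p = 0.0202). Of 12 other Gla proteins, 7 had a value and 6 were tested, with a median of 0.052. Limma called 0 of these (2 had an unadjusted p under 0.05), or 1 without KO replicate 1 or KO replicate 3. The count was also 1 with only genes valued in all 6 libraries, median-centred libraries, 1 added to the linear signal or robust moderation. MGP, the matrix Gla protein of cartilage and vessel wall, differed by 0.57 (adjusted p = 0.0781), and PRRG4, a transmembrane Gla protein, by -0.64 (adjusted p = 0.0547). BGLAP, the bone Gla protein osteocalcin, had values in 2 libraries, -2.84 in KO replicate 1 and -2.91 in KO replicate 2.

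Phosphatidylserine is exposed by scramblases, hidden by flippases and bound by other bridging systems beside the TAM ligands. Of 23 such genes 18 were tested, 4 rose and 3 fell, beside 32.9% called of all genes, with a median of 0.058. The flippase genes ATP8B1 (-1.15, adjusted p = 0.0177) and ATP11A (-0.51, adjusted p = 0.0305) fell, and the calcium-dependent scramblase ANO6 (0.44, adjusted p = 0.0208) rose. TUB, tubby, described as a further ligand of MERTK, had log2 signals of 2.24, 2.18 and 2.34 in VC and of 0.89, 0.59 and 0.77 in KO, and fell by 1.50 (adjusted p = 0.00571). The bridge MFGE8 binds integrins of ITGAV with ITGB3 or ITGB5. ITGB3 rose by 1.38 (adjusted p = 0.0125) and ITGAV by 0.49 (adjusted p = 0.0161), whereas ITGB5 (-0.059, adjusted p = 0.610) and MFGE8 (0.34, adjusted p = 0.0571) were not called. LRP1, an engulfment receptor, rose by 0.91 (adjusted p = 0.0159). The count of 7 called in this list became 1 without VC replicate 1 or VC replicate 3, 3 without KO replicate 3, 4 without VC replicate 2 and 13 without KO replicate 1.

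TAM receptors are shed from the surface by ADAM10 and ADAM17 and removed through ubiquitin ligases. Of 15 genes of shedding and turnover, 4 rose and 2 fell, beside 32.9% called of all genes, with a median of 0.076. ADAM17 rose by 0.46 (adjusted p = 0.0312), and RHBDF1, the iRhom1 that escorts ADAM17 to the surface, by 1.38 (adjusted p = 0.0111). ADAM10 differed by -0.20 (adjusted p = 0.156). CBLB, a ubiquitin ligase of receptor tyrosine kinases, rose by 1.22 (adjusted p = 0.00968), and NCSTN, a subunit of gamma-secretase, by 0.53 (adjusted p = 0.0197). The genes that fell encode the chaperone HSP90, HSP90AA1 by 1.28 (adjusted p = 0.0101) and HSP90AB1 by 0.42 (adjusted p = 0.0154). The count of 6 became 3 without VC replicate 1, VC replicate 3 or KO replicate 3 and 4 without VC replicate 2.

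Downstream of the receptors, 32 genes of TAM signal transduction were tested, of which 13 fell, 1 rose and 18 were not called, with a median of -0.20. Over all genes tested 19.8% were called lower and 13.1% higher, and the median was -0.13. When only the upper 50% of mean signal was tested, 16 of 27 genes of this list were called. Beside these, 5702 of the 9653 genes tested there were called (2263 higher, 3439 lower). The adaptor and exchange factor genes GRB2 (-0.31, adjusted p = 0.0442) and SOS1 (-0.98, adjusted p = 0.0307), which lead to Ras, fell. So did genes of the PI3K-AKT branch, with PIK3R1 at -0.59 (adjusted p = 0.0286), PIK3CB at -0.28 (adjusted p = 0.0407) and AKT1 at -0.57 (adjusted p = 0.0134). Among the exchange factors and adaptors that lead to the GTPase RAC1, VAV1 (-1.80), VAV2 (-0.57), ELMO1 (-0.55), ELMO2 (-0.36) and RAC1 itself (-0.37) were called lower. DOCK1 (-0.23, adjusted p = 0.0967), CRK (-0.28, adjusted p = 0.0651), CRKL (0.18, adjusted p = 0.147) and VAV3 (0.51, adjusted p = 0.0745) were not called. VAV1 lay near the floor of the table, between -7.42 and -4.40. BCAR1 (p130Cas), a scaffold of focal adhesions, rose by 0.64 (adjusted p = 0.0238). AKT1, PIK3CB, PIK3R1, VAV1, GRB2, SOS1, PTPN11, RAC1 and other genes of this list, and EGFR, stand in gene lists that the study showed from these same libraries, so the list is not independent evidence of a direction.

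This count moved with single libraries, and some of its genes lie on chromosomes where many genes were lower in KO. The 14 calls by limma became 0 without VC replicate 1 or VC replicate 3, where 14 and 15 of the 32 genes had an unadjusted p under 0.05 (19 with all libraries). They became 2 without KO replicate 3, 4 without VC replicate 2, 8 without KO replicate 2 and 17 without KO replicate 1. With median-centred libraries GRB2, PIK3CB, SRC and ELMO1 were no longer called. NCK1 and VAV3, both higher, were called there, and 12 genes of this list were called in all. All 3 of its genes on chromosome 20, SRC, PLCG1 and ELMO2, fell, where 36.1% of 491 tested genes were called lower and the median was -0.25. On chromosome 14, which holds AKT1 and HSP90AA1, 46.0% of 561 tested genes were called lower, with a median of -0.39, the lowest of 23 chromosomes. Of the 29 genes of the list outside chromosome 20, 10 fell, beside 19.8% called lower of all genes, and the median was -0.15. Among these 29 are still AKT1, and ELMO1 and RAC1 of chromosome 7. On chromosome 7, 27.1% of 866 tested genes were called lower, with a median of -0.19. The part of these chromosomes in the list's values was not tested.

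**Figure D5:**
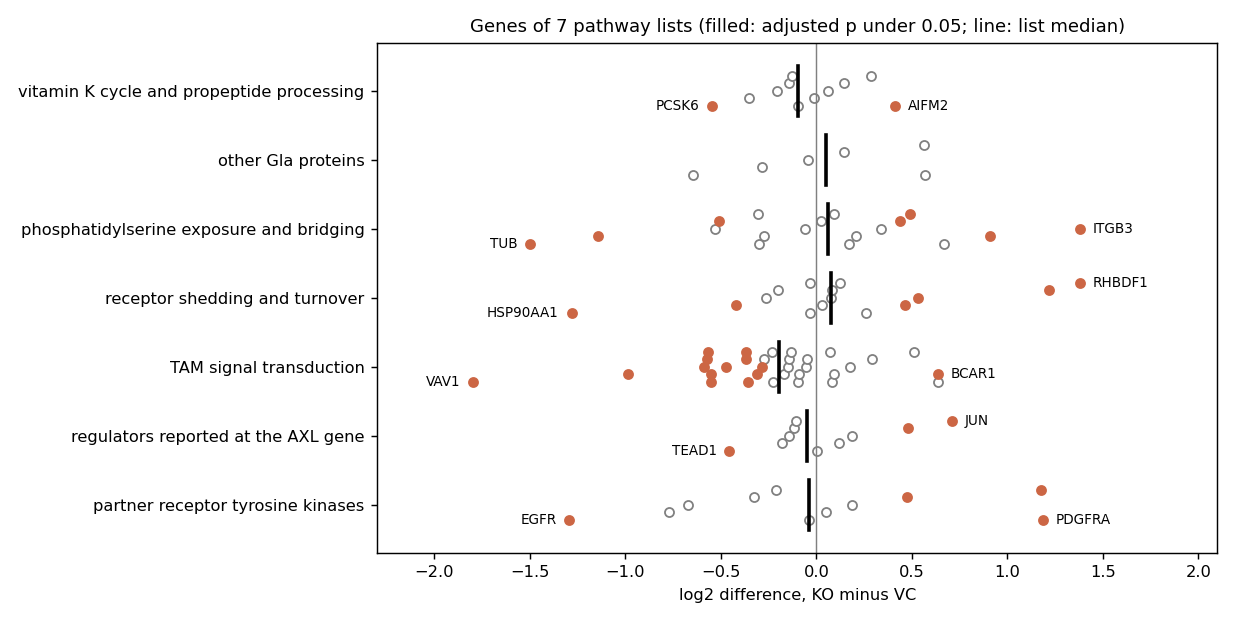
Log2 difference KO minus VC of each tested gene of the 7 lists, 1 list a row; filled points have an adjusted p under 0.05 and the vertical line is the list's median. Filled points lie on both sides of 0 in most lists, and 13 of the 14 in the signal transduction list lie below 0.

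Of 10 factors reported at the AXL gene, 2 rose and 1 fell, beside 32.9% called of all genes, with a median of -0.051. JUN, a subunit of AP-1, had log2 signals of 6.22, 6.03 and 6.22 in VC and of 6.86, 6.97 and 6.76 in KO, and rose by 0.71 (adjusted p = 0.0107). Its AP-1 partner FOSL1 differed by -0.14 (adjusted p = 0.190). The zinc finger factor MZF1 rose by 0.48 (adjusted p = 0.0344) and TEAD1, the DNA-binding partner of YAP, fell by 0.46 (adjusted p = 0.0277), but without any 1 of the libraries MZF1 was not called (0.40 to 0.55, with unadjusted p under 0.05 in each), and TEAD1 was called only without KO replicate 1 or KO replicate 2.

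AXL is known to pair with other receptor tyrosine kinases, and both directions were seen among these. Of 11 such genes, 3 rose and 1 fell, beside 32.9% called of all genes, with a median of -0.039. EGFR, the receptor of epidermal growth factor, had log2 signals of 5.10, 5.13 and 5.12 in VC and of 3.98, 3.77 and 3.70 in KO, and fell by 1.30 (adjusted p = 0.00571). PDGFRA, a receptor of platelet-derived growth factor, stood at 3.15, 3.19 and 3.16 in VC and at 4.45, 4.29 and 4.32 in KO, and rose by 1.19 (adjusted p = 0.00519). PDGFRB rose by 1.18 (adjusted p = 0.00963) from low values and FLT1, a VEGF receptor, by 0.48 (adjusted p = 0.0153). MET, the receptor of hepatocyte growth factor, differed by 0.049 (adjusted p = 0.591).

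Near-identical copies could share reads with the members. PROS2P, the pseudogene of PROS1, had no value in any library. TYRO3P, the pseudogene of TYRO3, had values of -3.96 and -5.62 in VC replicates 1 and 3 and of -4.64, -4.64 and -4.60 in KO, a difference of 0.17 (adjusted p = 0.822).

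The labelled cell type was checked with markers, since macrophages and endothelium also use this axis. COL1A2 (-5.72 to -4.59, not called with 1 added to the linear signal) and THY1 (-6.825 to -4.42) lay low in the table. All 12 mesenchymal and osteoblast-lineage markers had values. Of these COL1A1 (0.33), SPARC (0.37), ALPL (0.58) and SPP1 (1.545) rose and COL1A2 (-0.81), TWIST1 (-0.68) and NT5E (-0.66) fell, and their summed linear signal was 1459 to 1638 in VC and 1747 to 2158 in KO, of which VIM made up 88.0% to 91.1%. Of 11 macrophage and leukocyte markers 7 were tested and 2 rose, CD68 by 1.66 (adjusted p = 0.00963) and CSF1R by 2.16 (adjusted p = 0.00571), and the sum was 22.1 to 23.0 in VC and 52.5 to 88.4 in KO, of which CD68 alone made up 97.4% to 99.6%. CSF1R rose from low values, at -5.265 to -4.932 in VC and -3.023 to -2.678 in KO. PTPRC (CD45) lay between -7.12 and -4.35 in all 6 libraries, and CD163, TYROBP and AIF1 had 1 value each in VC and none in KO. CD14 went the other way from CD68, with -4.16, -3.80 and -4.58 in VC and 1 value in KO, -6.56. Of 7 endothelial markers 6 were tested and 2 rose, TIE1 by 0.99 (adjusted p = 0.00606) and ROBO4 by 2.57 (adjusted p = 0.0079), with sums of 19.6 to 21.7 in VC and 41.7 to 49.98 in KO, of which TIE1 made up 81.9% to 94.7%, while PECAM1, CDH5 and VWF lay at or below -4.64 wherever they had a value. Of 7 epithelial markers 5 were tested, KRT8 rose and EPCAM and CLDN4 fell, with sums of 576.9 to 640.1 in VC and 553.2 to 608.6 in KO, of which KRT18 made up 71.8% to 83.8%, and CDH1 had 1 value, -8.04 in VC replicate 2. The part of these markers in the members' values was not tested.

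The genes whose pattern was most like that of a member were found by Pearson's r over the 6 libraries, among 9654 genes with 6 values in the upper 50% of signals. With 2 groups of 3 libraries, such values largely follow the split between VC and KO, and they are given without a p. GAS6 was most like IL10RA, AAR2 and ZNF512B (each r = 0.999), which were lower in KO by smaller amounts (-1.07, -0.61 and -0.88). PROS1 was most like HDHD5 (0.999), LOC107987072 (0.997) and LINC00346 (0.994), and AXL was most like SERINC2 (0.996), GNAS (0.995) and RTEL1 (0.995). Of the 6 genes named for GAS6 and AXL, 4 lie on chromosome 20. That chromosome held 491 of the 19306 genes tested, and 36.05% of these were called lower, beside 19.8% of all genes. TYRO3 was most like LRFN3 (0.998), PLPP2 (0.990) and PLEKHG2 (0.983), all on chromosome 19. MERTK was most like MEAK7 (0.989), GATD3B (0.972) and EPAS1 (0.972). The part of the chromosomes in these likenesses was not tested.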

How the data were processed

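RNA of 3 VC and 3 KO libraries was sequenced by the authors. The labels name TRIzol extraction and an Illumina TruSeq stranded mRNA kit, and the submitters' processing notes list CASAVA, STAR, Partek and GRCh38.p13, whereas the study's methods name CLC Genomics and Partek. The deposited values are log2 signals that the authors had quantile-normalized between libraries. Their linear unit is not given in the sources used here, depth is unknown, and no counting interval could be computed.

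The signals were used as deposited in R 4.3.3 with limma 3.58.1, a linear model with empirical Bayes moderation without trend. A gene was tested with at least 2 values in each group. Two-sided p-values were Benjamini-Hochberg adjusted over all 19306 genes, and a gene with an adjusted p under 0.05 was called. The fit was tested on simulated data. Alternatives were the upper 50% of mean signal, genes with values in all 6 libraries, median-centred libraries, a pseudocount of 1 on the linear signal, robust moderation with a trend, a replicate block, and leaving out each library.

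The members and lists were chosen with earlier results of these data known. The text names all members, GGCX, VKORC1, FURIN, ADAM10, ADAM17 and MFGE8, CNTNAP4, antisense genes and copies that are listed, the 3 called genes with the largest difference in each direction of each list (6 values, groups not overlapping), and the 3 genes most like each member. Other genes named beside these, among them the neighbours, were chosen after their values were seen. Promoter windows and gene order came from RefSeq (GRCh38.p14) and spans from GENCODE 29. Python 3.11.15, numpy 2.4.6, pandas 2.3.3 and matplotlib 3.10.9 were used for descriptions and plots.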

Additional observations from a re-analysis of the deposited data

How the results depend on the processing

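Over the 12 alternatives GAS6 ran from -2.20 to -1.66, which is no support for a gene chosen by this contrast, and no called list gene reversed. With median-centred libraries AXL (-0.22) was not called, PROS1 (0.28) was called, and TYRO3 (0.015), MERTK (0.073) and the median of the lists (0.029) were above 0. PROS1 was also called with the upper 50% of signal (0.19) and with 1 added to the linear signal (0.14). When each library was left out in turn, the number of genes called ran from 1223 to 8669 (main 6354), that of list genes from 8 to 51 (main 36), AXL from -0.34 to -0.29, PROS1 from 0.16 to 0.23, TYRO3 from -0.11 to -0.033 and MERTK from -0.029 to 0.0097. Without VC replicate 1 the calls were 757 higher and 646 lower, and without VC replicate 3 they were 654 and 569, so that the excess of lower calls (2526 and 3828) was turned around. The titles give both groups the same replicate numbers. The deviations of same-numbered libraries from their group means correlated by 0.02, 0.01 and -0.01, and those of unlike numbers by -0.03 to 0.03. The labels name no shared batch, and these correlations over all genes cannot decide whether same-numbered samples were handled together. With the replicate block 1533 genes and 7 list genes were called, and AXL (-0.31) was not. The cause of these moves was not tested. Depth is unknown, 29611 genes have no value in any library, and differences of genes near the floor depend on the normalization.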
